A study of Mus musculus with 7 samples.

Results

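The largest T cell clone of the old spleen (SP) was compared with the other memory-type CD8 T cells of the same pool. Single-cell gene expression and TCR sequences had been measured on the 10x platform in CD3+ T cells of the small intestinal epithelium (IEL) and the SP of male C57BL/6 mice of 6 weeks (young) or 80 weeks (old), in 4 pools of which the old SP pool is described here. The labels give no genetic alteration or treatment. Cells of 3 mice were mixed in each pool, enriched for CD45+ cells, marked with a hashtag antibody per pool and sorted as CD3+, so that no cell could be assigned to a mouse. The paper states that sorted CD3+CD4+ cells were mixed into both IEL pools to raise their share of CD4 T cells. The 4 pools held 21365 cells in all, and the old SP pool held 5538 cells with 39915809 unique molecular identifiers (UMIs, counted RNA molecules), at a median of 6533.5 per cell. No barcode was listed in more than 1 pool.

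The clone was defined as the old SP cells of the clonotype with most barcodes, which were 1352 cells, 24.4% of the old SP cells (95% exact binomial interval 23.3 to 25.6%) and 26.6% (25.4 to 27.8%) of the 5082 cells with a clonotype. The comparison cells were the 902 other old SP cells with a clonotype, at least 1 *Cd8b1* UMI, at least 2 *Ccl5* UMIs and no *Cd4* or *Trdc* UMI. They belonged to 778 clonotypes, of which 728 had 1 comparison cell, and the largest had 30 and the next 12 cells. The cells were chosen by these measured values (clone size and the *Cd8b1*, *Ccl5*, *Cd4* and *Trdc* counts), which are given only as a description. At the limits, the clone had 1352 cells against 30 for the next clonotype, 46 comparison cells had exactly 2 *Ccl5* UMIs, and 211 cells that met every other criterion had exactly 1 and were left out. Of the 1352 clone cells, 1342 would pass the comparison gate, 7 had a *Cd4* UMI and 3 had a *Trdc* UMI. Each group was part of 1 pool, and the clone may stem from 1 of the 3 mice, so an effect of the clone and of the mouse cannot be told apart. No test between cell groups was therefore made, and all intervals cover counting error only.

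A T cell rearranges its TCR genes once, and its descendants inherit the product, so cells that share a TCR sequence are grouped as a clonotype. A cell can carry an additional TRA or TRB chain, and a chain can be missed. CD8 memory T cells respond to cytokines such as IL-15, keep granules with granzymes and perforin, and include virtual memory cells, which gain memory markers without a known encounter with foreign antigen. Large expansions of single CD8 clones are known in the spleen and blood of aged mice. Type I interferon induces a shared set of antiviral genes in T cells, as in most other cells.

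The receptor of the clone was TRAV13-2 with TRAJ34 and TRBV2 with TRBJ2-7. The CDR3 nucleotides, which define the clonotype, are given for the clone and for the next largest clonotype to show how they differ, with capitals for the bases that the germline V and J segments did not account for.

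Clone TRA: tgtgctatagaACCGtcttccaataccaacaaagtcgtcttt
Clone TRB: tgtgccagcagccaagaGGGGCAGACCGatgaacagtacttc
Second clonotype TRA: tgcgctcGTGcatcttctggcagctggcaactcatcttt
Second clonotype TRB: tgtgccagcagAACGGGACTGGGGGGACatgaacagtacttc

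The clone's TRA junction held 4 bases and its TRB junction held 11 bases outside the germline V and J segments. TRB D segments were not matched, so the capitals in TRB can include germline D bases. The TRA contig was found in 1332 clone cells at a median of 6 contig UMIs, and the TRB contig in 1141 cells at a median of 9. Both chains were found in 1121 cells, whereas 211 cells had been placed in the clonotype by TRA alone and 20 by TRB alone. No clone cell had an additional TRA or TRB chain, whereas 117 of the 902 comparison cells had one. The clone was defined by its chains, so this contrast is a description and does not show that doublets were absent. Neither CDR3 was found in an old SP cell with a clonotype outside the clone. Neither was found in any of the 5266 young SP cells with a TCR, which allows a share of up to 0.0570%, in the 3906 old IEL cells (up to 0.0768%) or in the 2810 young IEL cells (up to 0.107%). The 456 old SP cells without a clonotype had no contig in which a CDR3 could be found. Of these, 178 passed the comparison gate, and 104 of the 178 had both a *Trav13-2* and a *Trbv2* UMI.

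The mRNA counts, which did not enter the clonotype call, gave the same segments. A *Trav13-2* UMI (GRCm38 chr14:53634829-53635399) was present in 99.2% of clone cells (98.5 to 99.6%), in 2.0% of comparison cells (1.19 to 3.14%) and in 1.47% of 1222 CD4 T cells of the same pool. A *Trbv2* UMI (chr6:41047340-41047995) was present in 92.01% (90.4 to 93.4%), 3.77% (2.62 to 5.23%) and 7.86%, respectively. Since the clone was chosen by its TCR, these shares check the match of contigs and mRNA and are no separate finding.

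Clone cells were deeper than comparison cells, with a median of 10335.5 UMIs (range 2483 to 28049) against 7525 (2271 to 21122). Levels are therefore given as UMIs per 10000 UMIs summed over the cells, and shares of cells after thinning each cell to 3000 UMIs, which left out 1 clone and 24 comparison cells. After thinning, the median number of genes per cell was 1236 in the clone and 1268 in the comparison cells. A pseudocount of 0.1 entered the log2 ratios, which understate the change of low genes, while folds are direct ratios of the levels. The other T cells of the pool and the young SP cells that passed the same gate (519 cells) served as a reference, at median depths of 6132 UMIs for 529 CD8 T cells without *Ccl5*, 4665.5 for the CD4 T cells and 7883 for the young cells.

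The level of *Cd8b1*, which encodes the CD8 beta chain, was 13.2 in the clone and 13.0 in the comparison cells, and that of *Ccl5*, a chemokine of memory and effector cells, was 135 and 123. Both genes were part of the selection and show nothing about the type of cell. Of the memory markers that were not used, *Il2rb*, the IL-2 and IL-15 receptor beta chain, was at 5.18 in the clone, 3.71 in the comparison cells and 0.630 in CD8 T cells without *Ccl5*. *Eomes*, a transcription factor of memory cells, was at 1.52, 1.42 and 0.229, and *Cd44* at 0.840, 0.880 and 0.283. These 3 memory markers were thus above their levels in *Ccl5*-negative CD8 T cells in both groups. *Ly6c2*, a surface marker of memory CD8 T cells, was at 27.3 in the clone and 17.7 in the comparison cells, with thinned medians of 8 UMIs per cell (range 0 to 30) and 5 (0 to 26). *Ly6c1* is a near-identical copy, so counts could be split between these genes.

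Most genes had similar levels in the clone and in the comparison cells. Genes are called past 2-fold where the log2 ratio with the pseudocount of 0.1 was at least 1 in size. The direct fold of such genes is larger, and some genes not called have a direct fold above 2. Of 5679 genes at 0.2 UMIs per 10000 or more in either group, 29 (0.511%) were past 2-fold higher and 31 (0.546%) past 2-fold lower in the clone. The median log2 ratio was -0.05, and 94.7% of the genes lay within 0.5 of 0. Across genes, which are not independent replicates, the log2 levels had a Pearson r of 0.978.

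**Figure D1:**
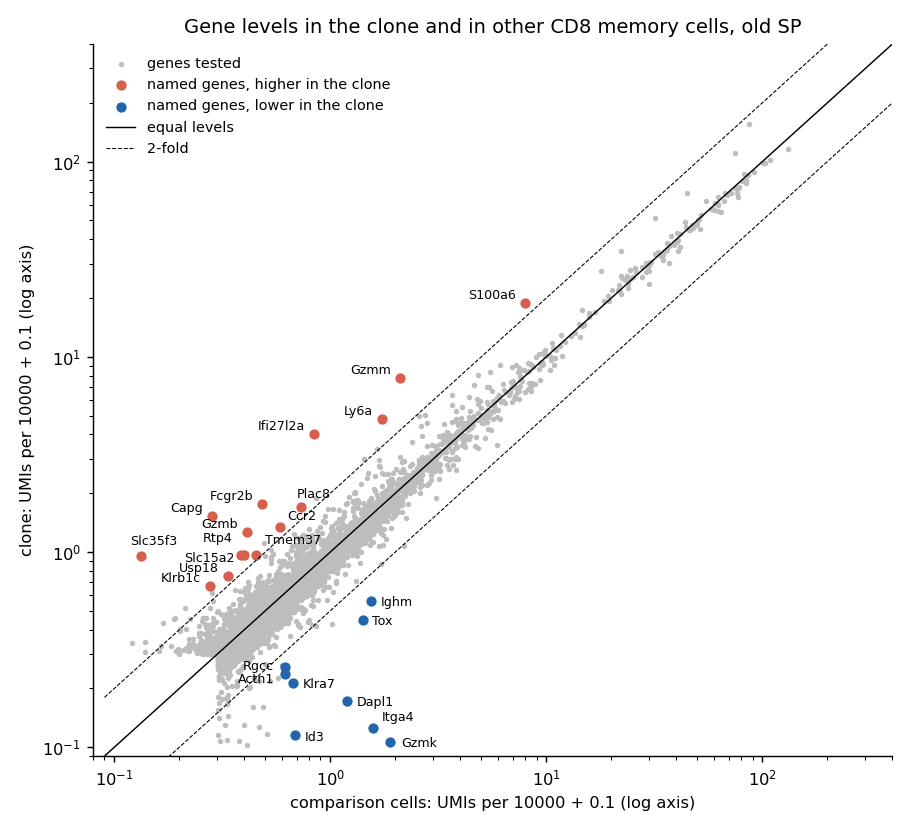
Level of each of the 5679 genes in the comparison cells (x axis) and in the clone (y axis), in UMIs per 10000 plus 0.1, on log axes, with dashed lines at 2-fold. Most points lie within the dashed lines, with *Gzmm*, *Ifi27l2a* and *Slc35f3* far above the upper line and *Gzmk*, *Itga4* and *Id3* far below the lower one.

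The granule enzymes differed in opposite directions. *Gzmm* (chr10:79689020-79695261), which encodes granzyme M, was at 7.71 in the clone and 2.01 in the comparison cells, a 3.84-fold difference (3.63 to 4.06). After thinning, a *Gzmm* UMI was present in 85.5% of clone cells and 29.95% of comparison cells, against 0.372% of CD4 T cells, with a median of 2 UMIs (range 0 to 13) against 0 (0 to 8). The *Gzmm* level was 2.85 in the second clonotype and 0.622 in the young cells, both below the clone. *Gzmb* (chr14:56258838-56262260), granzyme B, was at 1.17 against 0.310 (3.77-fold, 3.26 to 4.37), with a UMI in 24.7% against 7.74% of thinned cells and 6.24% of CD4 T cells. The comparison cells were thus close to the CD4 background in *Gzmb*, and the clone was above it.

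*Gzmk* (chr13:113171608-113225908), granzyme K, was nearly missing from the clone. Its level was 0.00635 in the clone and 1.80 in the comparison cells, 283-fold lower (149 to 620), and 0.0740% and 20.2% of thinned cells had a UMI. *Gzma*, granzyme A, was at 0.329 against 0.913, 2.77-fold lower (2.46 to 3.14), and its log2 ratio of -1.24 became -0.44 against depth-matched comparison cells. Among 14 measured genes of the cytotoxic list, *Gzmm* and *Gzmb* were past 2-fold higher and *Gzmk* and *Gzma* past 2-fold lower. The list's median log2 ratio was 0.03, near the -0.05 of all genes.

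*Fcgr2b* (chr1:170958617-170976547), the inhibitory Fc gamma receptor IIb, was at 1.67 in the clone against 0.384 (4.34-fold, 3.82 to 4.95). A UMI was present in 39.0% of thinned clone cells, 9.0% of comparison cells and 0.186% of CD4 T cells. *Fcgr2b* was at 0.0191 in the young cells. Low values outside the old CD8 memory cells and higher values in the clone than in the other old memory cells were also found for *Slc35f3* (chr8:126298558-126395482), a member of a solute carrier family. The *Slc35f3* level was 0.855 in the clone and 0.0326 in the comparison cells (26.2-fold, 17.2 to 42.0), 0.00164 in CD4 T cells and 0 in the young cells, where 3 UMIs would be a level of 0.00715. A *Slc35f3* UMI was present in 19.3% of thinned clone cells and 0.456% of comparison cells. The *Slc35f3* level was 1.23 in the high X part of the clone, described further on, and 0.159 in the low X part. In the low X part, its log2 ratio over the comparison cells was 0.97.

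*Capg* (chr6:72544391-72562983), an actin filament capping protein, was at 1.43 in the clone against 0.182 (7.87-fold, 6.56 to 9.52), and at 1.58 in CD4 T cells. The *Capg* level was 2.13 in the high X part of the clone and 0.143 in the low X part, which was below the comparison cells. *S100a6* (chr3:90612882-90624181), a calcium-binding protein, was at 18.7 against 7.86 (2.39-fold, 2.32 to 2.46), with a thinned median of 5 UMIs (range 0 to 27) against 1 (0 to 23). An *S100a6* UMI was present in 96.6% of thinned clone cells and 61.3% of comparison cells, and its level was 22.2 and 12.4 in the high X and low X parts of the clone described further on, with log2 ratios of 1.48 and 0.65 over the comparison cells. *Ly6a* (chr15:74994877-74998031), which encodes Sca-1, was at 4.69 against 1.63 (2.88-fold, 2.70 to 3.08), at 6.29 in CD4 T cells and at 0.201 in the second clonotype. *Ccr2*, a chemokine receptor, was at 1.25 against 0.484 (2.57-fold, 2.28 to 2.9), and *Plac8* at 1.60 against 0.628 (2.55-fold, 2.30 to 2.84). *Slc15a2*, a peptide transporter, was at 0.865 against 0.296 (2.92-fold, 2.51 to 3.41), and *Tmem37* at 0.865 against 0.354 (2.44-fold, 2.12 to 2.82). *Tmem37* was also at 1.25 in the second clonotype, above the clone. Over the comparison cells, the log2 ratio of *Ccr2* was 1.43 in the high X part and 0.66 in the low X part. Those of *Plac8* were 1.34 and 0.98, those of *Tmem37* 1.28 and 0.63, and those of *Slc15a2* 1.25 and 1.35.

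Of 20 measured genes of the type I interferon response, all 20 had a log2 ratio above 0, with a median of 0.51 against -0.05 over all genes, and 3 were past 2-fold higher. *Ifi27l2a* (chr12:103442167-103443680), an interferon-induced gene, was at 3.93 in the clone against 0.738 (5.33-fold, 4.86 to 5.85), with a UMI in 51.2% against 15.1% of thinned cells. It was also at 7.31 in CD4 T cells, 2.72 in the young cells, 1.89 in CD8 T cells without *Ccl5* and 0 in the second clonotype, where 3 UMIs would be a level of 0.121. The comparison cells were thus low in *Ifi27l2a* among these populations, and the clone was not the highest. *Rtp4*, another interferon-induced gene, was at 0.868 against 0.287 (3.02-fold, 2.59 to 3.53). Its log2 ratio was 1.47 in the high X part of the clone and 0.99 in the low X part. *Usp18*, a protease that removes the ubiquitin-like ISG15, was at 0.656 against 0.234 (2.80-fold, 2.37 to 3.34), and *Irf9*, a subunit of the transcription factor downstream of the interferon receptor, at 0.653 against 0.372 (1.76-fold, 1.53 to 2.03). The summed level of the list was 35.3 in the clone and 25.5 in the comparison cells.

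**Figure D2:**
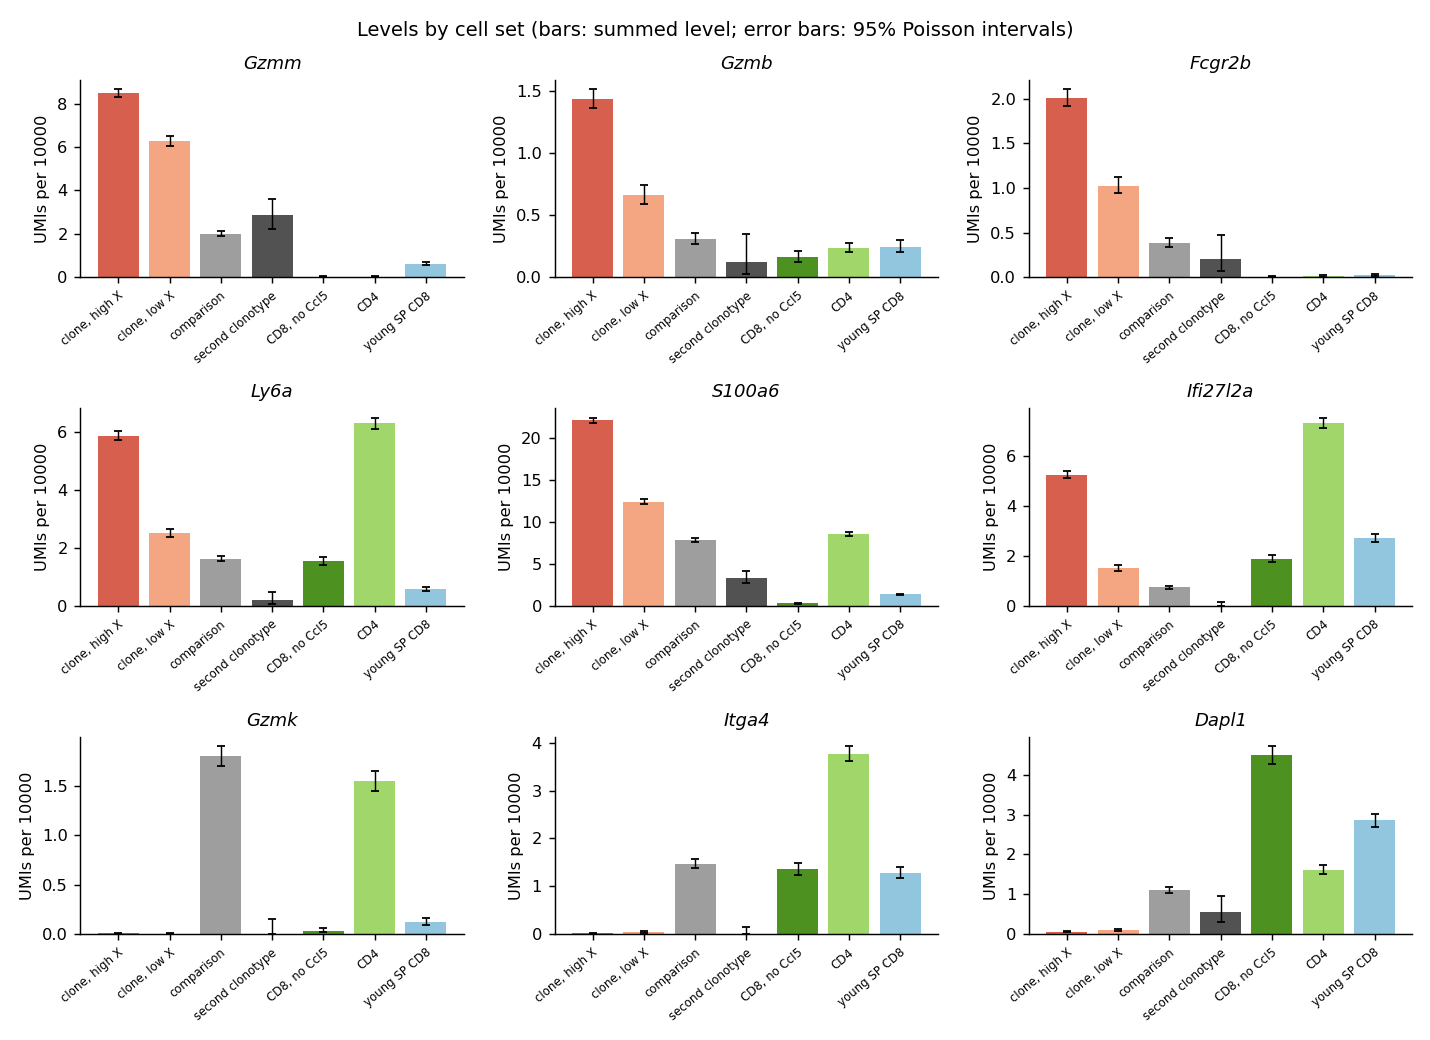
Level of 9 genes in UMIs per 10000 (bars, with 95% Poisson intervals for counting error) in the high X and low X parts of the clone, the comparison cells, the second clonotype, *Ccl5*-negative CD8 T cells, CD4 T cells and young SP memory CD8 T cells. *Gzmm* and *Fcgr2b* stand highest in both clone parts, *Gzmk* and *Itga4* are near 0 in the clone, and *Ly6a* and *Ifi27l2a* are highest in the CD4 T cells.

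Receptors of the natural killer (NK) lineage were mixed. *Klrb1c* (chr6:128778485-128789215), which encodes NK1.1, was at 0.572 in the clone against 0.178 (3.22-fold, 2.66 to 3.93) and reached 2.17 in the second clonotype. The *Klrb1c* level was 0.878 in the high X part of the clone and 0.00604 in the low X part, which was below the comparison cells. *Klrc1*, encoding NKG2A, was at 2.34 against 1.51 (1.55-fold), whereas *Klrk1*, encoding NKG2D, was at 1.07 against 1.71 (1.60-fold lower). *Klra7* was at 0.114 against 0.575 (5.03-fold lower, 4.17 to 6.08) and *Klra3* at 0.0169 against 0.407 (24.1-fold lower, 15.8 to 38.2). *Klra* genes are closely related in sequence, so how the reads were split among them is uncertain. Of 12 measured genes of the NK receptor list, *Klrb1c* was past 2-fold higher and *Klra3* and *Klra7* past 2-fold lower, at a median log2 ratio of -0.25. *Klra8*, which was in the list of NK cell markers instead, was past 2-fold higher, so the *Klra* genes were not all lower. *Ncr1* and *Klrg1* had no UMI in the clone, where 3 UMIs would be a level of 0.00212.

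The lowest ratios besides *Gzmk* were those of *Itga4*, *Dapl1* and *Id3*. *Itga4* (chr2:79255426-79333123), the alpha 4 integrin chain, was at 0.0254 in the clone and 1.47 in the comparison cells, 58.0-fold lower (41.6 to 83.3), and a UMI was present in 0.740% and 25.4% of thinned cells. *Itga4* was at 1.35 in *Ccl5*-negative CD8 T cells and 1.28 in the young cells but at 0 in the second clonotype. The clone and the second clonotype were thus both low in *Itga4*. Comparison cells without an *Itga4* UMI were also common. Of the comparison cells, 530 had no *Itga4* or *Gzmk* UMI and at least 2 *Ly6c2* UMIs. A link of *Itga4* to clonal expansion was not tested. *Dapl1* (chr2:59484653-59505020), a marker of naive CD8 T cells, was at 0.0727 against 1.10 (15.1-fold lower, 12.3 to 18.8), and *Id3* (chr4:136143497-136145755), a transcriptional regulator of long-lived cells, at 0.0148 against 0.588 (39.7-fold lower, 25.6 to 64.8). *Actn1*, an actinin, was at 0.138 against 0.514 (3.72-fold lower, 3.11 to 4.45) and *Rgcc* at 0.159 against 0.516 (3.25-fold lower, 2.74 to 3.86). Against depth-matched comparison cells, the log2 ratio of *Gzmk* became -2.96 instead of -4.16 and that of *Itga4* -2.65 instead of -3.65.

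Of 15 measured genes of the naive list, *Dapl1*, *Igfbp4*, *Actn1* and *Rgs10* were past 2-fold lower and none was past 2-fold higher, at a median log2 ratio of -0.25. *Rgs10*, a regulator of G protein signalling, was at 0.977 against 2.10 (2.15-fold lower, 1.99 to 2.32), and *Lef1*, a transcription factor of naive T cells, at 1.80 against 3.00 (1.67-fold lower, 1.57 to 1.77). Unlike *Dapl1* and *Actn1*, *Rgs10* did not stay past 2-fold both after thinning and against depth-matched comparison cells. Of 23 memory and virtual memory genes, *Ly6a* and *Ccr2* were past 2-fold higher and *Itga4* and *Id3* past 2-fold lower, at a median of 0.09. *Bcl2*, a survival factor, was at 5.57 against 3.56 (1.56-fold, 1.49 to 1.64).

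The inhibitory receptor and exhaustion list had 6 measured genes, of which *Tigit*, *Tox* and *Nr4a2* were past 2-fold lower in the clone, none was past 2-fold higher and 2 had a log2 ratio above 0. The list's median was -0.69, and -0.19 against the comparison cells without an *Itga4* or *Gzmk* UMI, which are described further on. *Tox* (chr4:6686353-6991557), a transcription factor of exhausted cells, was at 0.350 against 1.31 (3.75-fold lower, 3.36 to 4.19), with a UMI in 10.2% against 24.8% of thinned cells. *Tigit*, an inhibitory receptor, was at 0.0268 against 0.367 (13.7-fold lower, 9.71 to 19.8) and *Nr4a2*, a transcription factor induced by TCR signalling, at 0.118 against 0.428 (3.63-fold lower, 2.99 to 4.42). No *Pdcd1* UMI was counted in the clone (3 UMIs would be a level of 0.00212), against a level of 0.163 in the comparison cells.

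The remaining lists held few or no genes past 2-fold. Of 22 residence and adhesion genes, *Itgax* (0.356 against 0.0889, 4.0-fold, 3.06 to 5.32), which encodes CD11c, and *S100a6* were past 2-fold higher, at a median of -0.04. Of 10 chemokines and cytokines, *Ccl3* was past 2-fold lower (0.0600 against 0.390), at a median of -0.24. *Ccl4*, encoding another chemokine, was at 0.989 against 1.65, a log2 ratio of -0.68 that became 0.02 against depth-matched comparison cells. Of 21 CD8 T cell transcription factors, *Ikzf2*, encoding Helios, was past 2-fold lower (0.0303 against 0.296), at a median of -0.08. None of 27 TCR signalling genes (median -0.14), 15 MHC class I genes (0.03), 7 cell cycle genes (-0.07), 18 survival genes (0.06), 22 metabolic genes (0.04) and 21 immediate early and heat shock genes (-0.20) was past 2-fold. The nearest of these was *Dusp2*, a phosphatase induced by TCR signalling, at 0.771 against 1.62 (log2 ratio -0.98).

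**Figure D3:**
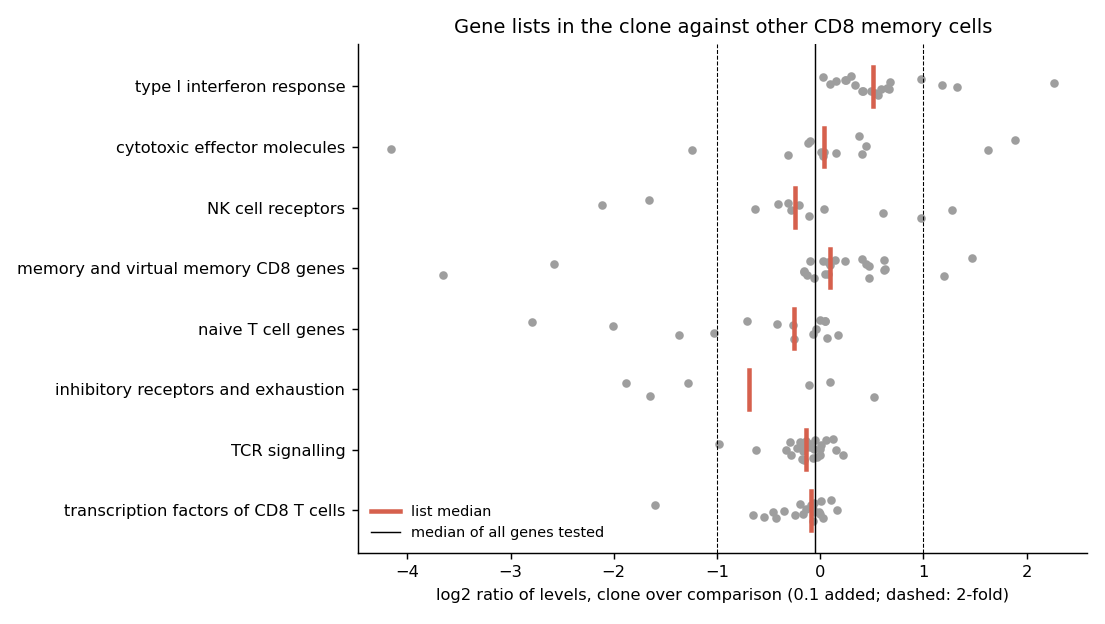
Log2 ratio of levels, clone over comparison cells with 0.1 added, for each measured gene (points) of 8 gene lists, with the list median in red, the median of all genes as a solid line and 2-fold as dashed lines. Every gene of the interferon list lies above 0, and the cytotoxic, memory and NK receptor lists hold genes far to both sides.

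Markers of other cell types were mostly low, apart from *Ighm* in the comparison cells and the NK cell list. *Ighm*, the immunoglobulin M heavy chain, was at 0.463 in the clone and 1.45 in the comparison cells. After thinning, an *Ighm* UMI was present in 53.1% of CD4 T cells, 31.8% of comparison cells and 12.7% of clone cells. Its log2 ratio was -1.46, and -1.43 against depth-matched comparison cells. The source of the *Ighm* UMIs was not tested. *Cd74*, which belongs to the same B cell list, was at 0.206 against 0.0385, with a UMI in 0.666% and 1.25% of thinned cells, so its higher level came from few cells. The 13 B cell genes summed to 0.888 in the clone and 1.68 in the comparison cells, with *Ighd* at 0 in the clone. The 12 myeloid genes summed to 1.03 and 0.966 with *Lyz2* and *Cd14* at 0, the 8 red cell and platelet genes to 0.00776 and 0.00444, the 8 regulatory and helper T cell genes to 0.239 and 0.871, and the 8 listed gamma-delta and innate-like genes found in the data to 0.0162 and 0.130. The 8 NK cell genes summed to 3.83 and 2.22, with *Klrb1c*, *Klra8* and *Gzmb* past 2-fold higher among 5 measured and *Ncr1* at 0. The parts of the clone differed in this list. The median log2 ratio of the 5 measured genes over the comparison cells was 1.35 in high X cells and -0.01 in low X cells. In low X cells, 2 of the 5 were above 0 and 3 below. *Klra8* had the opposite order to *Klrb1c*, with log2 ratios of 0.85 in high X and 1.91 in low X cells.

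The clone was also set against the 530 comparison cells with no *Itga4* or *Gzmk* UMI and at least 2 *Ly6c2* UMIs, which were chosen after the values were seen. This choice fixed the ratios of *Itga4* and *Gzmk* and can move genes that vary with them, so these values are a description. Against them, 29 of 5620 genes (0.516%) were past 2-fold higher and 13 (0.231%) past 2-fold lower in the clone. *Tox* then had a log2 ratio of -0.38 instead of -1.65 and *Rgcc* of -0.75 instead of -1.25, while *Dapl1* remained at -2.57 and *Id3* at -2.03. *Gzmm* was at 1.60, *Fcgr2b* at 1.59, *Gzmb* at 2.49 and *Ifi27l2a* at 3.46. The interferon list was above 0 in 20 of 20 genes, at a median of 0.61.

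X-linked genes had higher ratios than autosomal genes. At a level of 0.5 or more, 98 of 98 X-linked genes had a log2 ratio above 0, with a median of 0.55 (quartiles 0.43 to 0.68), whereas the medians of the 19 autosomes lay between -0.08 and -0.02. X-linked genes named above or counted in the lists, such as *Xiap* (0.526 against 0.296), *Pgk1* (2.65 against 1.58) and *Cxcr3* (2.81 against 2.10), were among them. The median ratio hid a split of the clone into cells with different X-linked expression.

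The X share, as X-linked UMIs per 100 autosomal UMIs in a cell, was measured separately in the 613 genes on the centromere side of 96.1 Mb and in the 470 genes beyond it, leaving out *Tmsb4x*, whose mRNA is very abundant. Over the centromere-side genes, the clone cells fell around means of 1.57 and 2.91 (SD 0.16 and 0.256), a ratio of 1.86, with the limit at 2.08 and 7 cells close to it. There were 849 cells above the limit (62.8%, 60.2 to 65.4%, here called high X) and 503 below (low X). The genes beyond 96.1 Mb, which had not been used, placed 1338 of 1352 clone cells (99.0%) in the same part. Their median share was 2.91 in high X cells, 1.65 in low X cells and 1.57 in comparison cells. The low X cells thus lay where the comparison cells lay. *Tmsb4x*, which encodes thymosin beta 4, had a median share of 2.13, 0.839 and 0.893.

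**Figure D4:**
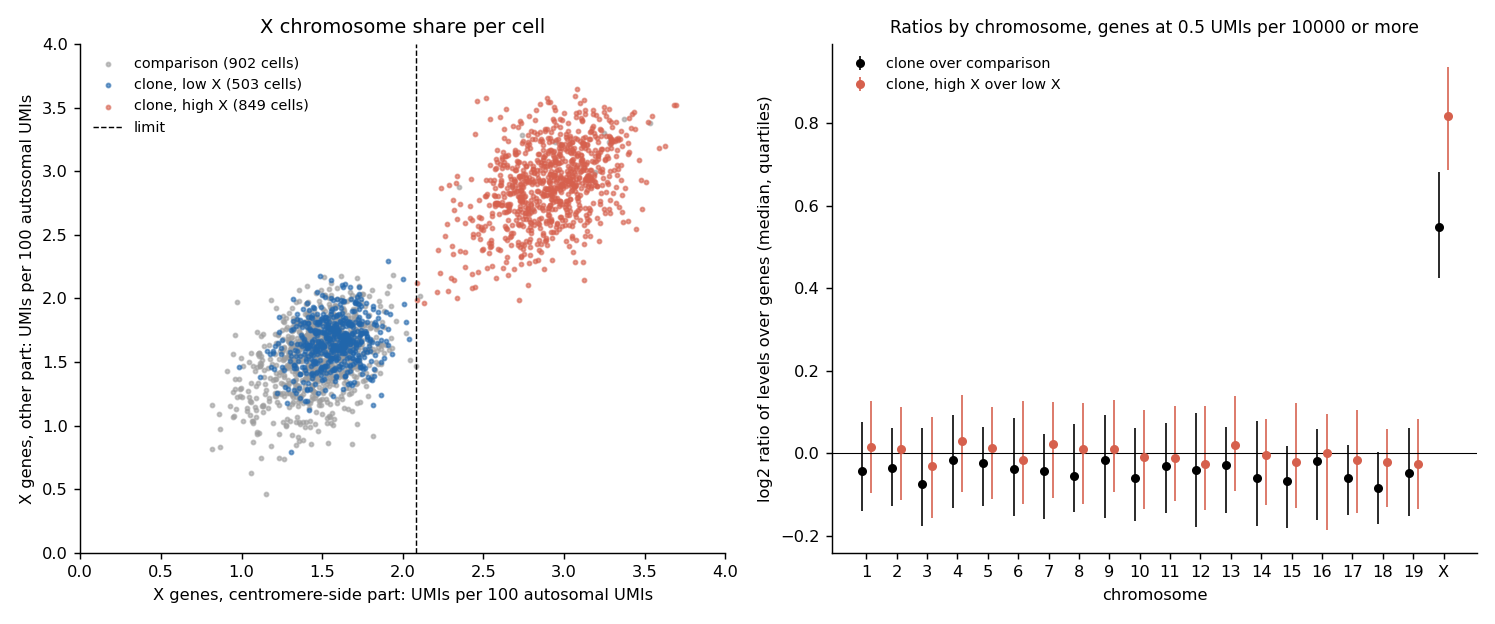
Left, X share of each cell over centromere-side X genes (x axis) and over the other X genes (y axis), in UMIs per 100 autosomal UMIs; the dashed line is the limit of 2.08. Right, log2 ratio of levels by chromosome as median and quartiles over genes at 0.5 UMIs per 10000 or more, for clone over comparison cells and for high X over low X clone cells. The clone forms 2 clouds, of which the lower overlaps the comparison cells, and the X stands apart from every autosome in both ratios, of which the second includes the 57 centromere-side genes used for the split.

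Within the clone, the 41 X-linked genes at 0.5 or more beyond 96.1 Mb, which had not been used for the split, were all higher in high X than in low X cells. Their median log2 ratio was 0.81 (quartiles 0.71 to 0.93, lowest 0.52), a median fold of 1.89, and in the 30-Mb windows from 120 to 150 Mb and from 150 to 180 Mb the medians were 0.87 and 0.76. The autosome medians were between -0.03 and 0.03. In the 57 centromere-side genes, which were among those that defined both parts, the median was 0.82 and 56 genes were above 0, the exception being *Plp2* at -0.09, which is a description. Low X cells over comparison cells had a median log2 ratio of -0.04 over the genes beyond 96.1 Mb. Genes of the Y chromosome showed no shared rise in high X cells. *Ddx3y* was at 0.354 in high X, 0.461 in low X and 0.354 in comparison cells, and *Eif2s3y* at 0.398, 0.518 and 0.582, both lower in high X than in low X cells. *Uty* was at 0.239, 0.282 and 0.283 and *Kdm5d* at 0.164, 0.133 and 0.157, with counting intervals that overlapped between both parts. *Xist*, the RNA that coats the inactive X chromosome, had 1 UMI in the high X cells and 0 in the low X cells. Median depths were 10658 UMIs in high X and 9901 in low X cells. No cell of either part had an additional TCR chain, which cannot show that doublets were absent, because the clone was defined by its chains.

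Outside the clone as called by contigs, cells above the limit were infrequent except among old SP cells without a clonotype. They were 13 of 902 comparison cells (1.44%), each of another clonotype, of which 2 had both a *Trav13-2* and a *Trbv2* UMI. They were 2 of 1222 CD4 T cells, 2 of 529 *Ccl5*-negative CD8 T cells, 0 of the 30 cells of the second clonotype and 0 of the 519 young memory cells. In the other pools, they were 4 of 5668 young SP, 1 of 5811 old IEL and 4 of 4348 young IEL cells. The exception was old SP cells without a clonotype that passed the gate, of which 80 of 178 (44.9%) were above the limit. Of these 80 cells, 62 had both a *Trav13-2* and a *Trbv2* UMI. Among the 7 comparison clonotypes with at least 5 cells, the median share lay between 1.07 and 1.64, within the range of the low X cells. The source of the high X share was not tested.

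Both parts of the clone also differed in autosomal genes. Of 5599 genes measured, 44 (0.786%) were past 2-fold higher in high X cells, 21 of them outside the X chromosome, and 12 (0.214%) past 2-fold lower, 11 of them outside it. Genes without a known chromosome were counted as outside it. Of the 202 X-linked genes measured, 23 were past 2-fold higher and 1 past 2-fold lower. The 202 genes include centromere-side genes that defined both parts, so the X-linked counts are a description. *Klrb1c* was at 0.878 in high X cells (808 UMIs) and 0.00604 in low X cells (3 UMIs), 145-fold apart (49.6 to 706). *Capg* was at 2.13 and 0.143 (14.9-fold, 11.8 to 19.2), with a UMI in 43.6% and 3.78% of thinned cells. *Slc35f3* was at 1.23 and 0.159 (7.73-fold, 6.15 to 9.84). In *Klrb1c* and *Capg*, the low X cells were thus below the comparison cells, at 0.178 and 0.182.

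*Ifi27l2a* was at 5.24 in high X and 1.51 in low X cells (3.46-fold, 3.21 to 3.75), and *Ly6a* at 5.87 and 2.51 (2.34-fold, 2.20 to 2.49). *Gzmb* was at 1.44 and 0.665 (2.17-fold, 1.92 to 2.45). Both parts were above the comparison cells in these genes. *Cxcr6*, a chemokine receptor of resident cells, was at 1.57 and 0.614 (2.55-fold, 2.26 to 2.9), *Slamf6*, a receptor of the SLAM family, at 0.560 and 0.193 (2.89-fold, 2.32 to 3.64), and *Id2*, a regulator of effector cells, at 4.37 and 2.09 (2.09-fold, 1.96 to 2.24). In these genes the comparison cells, at 0.797, 0.444 and 2.29, lay between both parts.

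*S1pr5*, a receptor for egress signals in the blood, had the opposite order, at 0.226 in high X, 1.08 in low X and 0.465 in comparison cells, with a UMI in 4.25%, 26.4% and 9.45% of thinned cells. *Cd163l1*, of a scavenger receptor family, was at 0.0772, 0.572 and 0.236. *Tspan31*, a tetraspanin, was at 0.18, 0.562 and 0.486, and *Ass1*, an enzyme of arginine synthesis, at 0.20, 0.52 and 0.622. The comparison cells lay nearer to the low X cells than to the high X cells in *Tspan31* and *Ass1*.

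**Figure D5:**
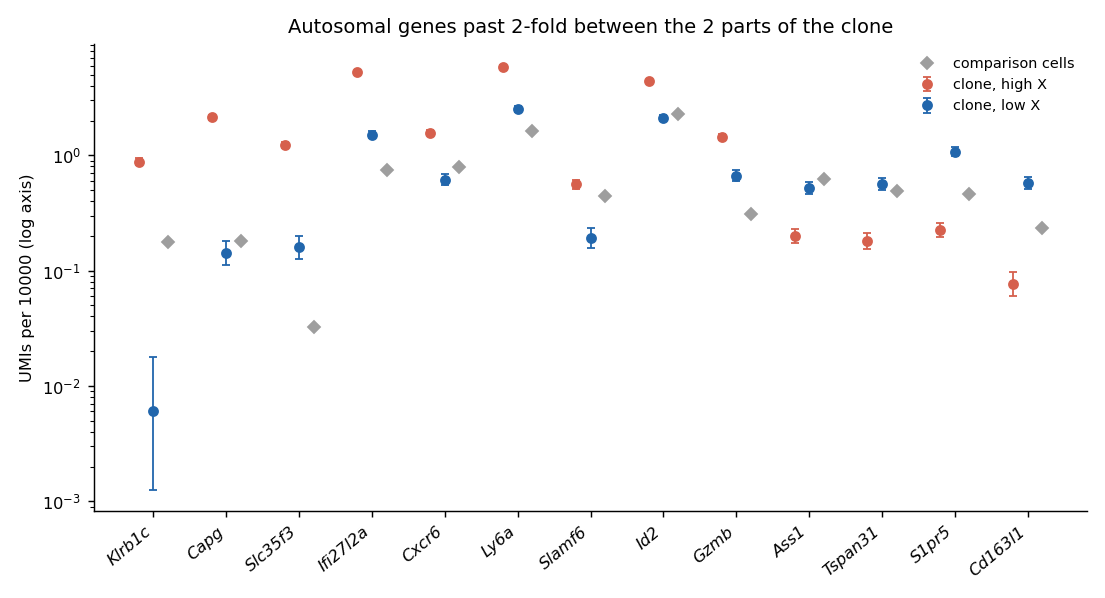
Level in UMIs per 10000 (log axis) of the 13 autosomal genes with a known chromosome that were past 2-fold between both parts of the clone at a level of 0.5 or more, for high X clone cells, low X clone cells (95% Poisson intervals for counting error) and comparison cells (diamonds). *Klrb1c* is nearly missing from the low X cells, and *S1pr5* and *Cd163l1* are lowest in the high X cells.

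The genes past 2-fold in the whole clone were also described in its parts. They had been chosen in the summed clone, to which high X cells gave 9202737 of 14168703 UMIs. A closer match to the high X cells was therefore partly built in, and the counts of these genes are a description. Of the 29 genes past 2-fold higher in the clone, 26 were also past 2-fold higher in high X cells and 11 in low X cells, and 8 genes are in both of these counts. In low X cells, 27 of the 29 had the same sign, the exceptions being *Capg* and *Klrb1c*. Of the 31 lower genes, 31 were past 2-fold in high X and 22 in low X cells, and all 31 had the same sign in low X cells. Against the comparison cells, 17 of 5664 genes (0.300%) were past 2-fold higher and 30 (0.530%) lower in low X cells, and 50 of 5735 (0.872%) and 46 (0.802%) in high X cells. *Gzmm* was at 8.49 in high X and 6.27 in low X cells and *Fcgr2b* at 2.01 and 1.02, both above the comparison cells. *Slc15a2* was at 0.840 and 0.910 and *Usp18* at 0.632 and 0.701, and their counting intervals overlapped between both parts. *Gzmk* was at 0.00761 and 0.00403 and *Itga4* at 0.0185 and 0.0383, near 0 in both parts. Of the 20 interferon genes, 18 were above 0 in low X cells over comparison cells, at a median log2 ratio of 0.42, against 0.55 in high X cells. The naive list had a median of 0.04 in low X cells and -0.31 in high X cells.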

How the data were processed

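Per the labels, 10x libraries of hashtagged, CD3+ sorted cells were sequenced, and the processing notes name Cell Ranger 7.0.1 and mm10. The authors deposited raw counts (UMIs per gene and cell) and counts of UMIs per TCR contig with clonotype names, by pool. How doublets were removed before deposit is not given in the sources used here.

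Levels (UMIs per 10000, summed over cells), log2 ratios with a pseudocount of 0.1 and a minimum level of 0.2 in either group, 95% exact Poisson, binomial and conditional ratio intervals and thinning to 3000 UMIs were computed with Python 3.11.15, numpy 2.4.6, scipy 1.17.1 and pandas 2.3.3, and tested on simulated data. Figures were drawn with matplotlib 3.10.9. Coordinates came from the GENCODE M21 annotation of GRCm38. The X share was fitted with a mixture of 2 normal components in scikit-learn 1.9.0. Scrublet in scanpy 1.11.5 marked 1 of 5538 old SP cells (0.0181%) and was not relied on. The 189 old SP cells with more than 1 TRB or more than 2 TRA chains were left out as an alternative (43 comparison cells, no clone cells).

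Named genes were the up to 15 largest log2 ratios per direction past 2-fold, at a level of 0.5 or more, that were also past 2-fold after thinning and against depth-matched comparison cells (15 higher of 17, 9 lower of 9), and in each list the members with the largest ratios. *Bcl2*, *Ccl3*, *Igfbp4*, *Klra3*, *Klra8*, *Itgax*, *Tigit*, *Nr4a2*, *Pdcd1*, *Ikzf2*, *Cd74*, *Xiap*, *Pgk1*, *Cxcr3* and the genes described between both parts of the clone were named after their values were seen. Members and lists were chosen with earlier results of these data known, and the X components and the most similar comparison cells (no *Itga4* or *Gzmk* UMI, at least 2 *Ly6c2* UMIs) after the values were seen. The labels of pooled gene expression, TCR and hashtag libraries gave no group, and these were not analysed here.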

Additional observations from a re-analysis of the deposited data

Results flagged for a closer look

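Old SP cells without a clonotype, which entered no comparison, included cells with the high X share. Of 456 such cells, 178 passed the gate of the comparison cells, and 80 of these (44.9%) were at or above the limit, against 13 of 902 comparison cells (1.44%). A *Trav13-2* and a *Trbv2* UMI were both present in 104 of the 178 cells, and in 62 of the 80 cells above the limit. Both segments were present in 1233 of 1352 clone cells and 4 of 902 comparison cells.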

How the results depend on the processing

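No paired analysis was possible because each group was part of 1 pool. The number of genes past 2-fold higher (29) became 45 and 8 with pseudocounts of 0.02 and 0.5, 50 with high X clone cells only and 17 with low X clone cells only. The number lower (31) became 49 and 6 with these pseudocounts, 49 and 12 at minimum levels of 0.1 and 0.5, 54 after thinning to 1500 UMIs and 13 against the most similar comparison cells. With scaling that left out TCR, ribosomal and mitochondrial genes, the split was 42 higher and 68 lower. Under the other alternatives, including thinning to 3000 UMIs (28 and 45), depth matching (31 and 26) and equal weights per cell (29 and 46), the counts stayed within 1.5 times. The share of old SP cells in the clone became 20.6% for cells with the clone's TRB CDR3 and 26.6% of cells with a clonotype. The share of high X clone cells was between 62.1 and 63.5% under 3 alternatives. Of these, leaving out doublets removed no clone cell and could not change the share. Of 576 pairs of 24 named genes and 24 alternatives, 572 kept the direction, which is a description. The pseudocounts, the minimum levels and centring on the median ratio could not reverse these genes. Leaving out comparison cells that share a CDR3 with the clone removed no cell. The named genes had also been chosen to keep their direction after thinning to 3000 UMIs and depth matching. *Capg* and *Klrb1c* reversed to log2 ratios of -0.22 and -1.39 with low X clone cells only. *Gzmk* (0.089) and *Itga4* (0.33) reversed against the most similar comparison cells, which were chosen to have no UMI of either gene. The alternatives with X parts, most similar cells, cells above the X limit and cells above 15000 UMIs were chosen after seeing the data. The cause of the other changes was not tested. Depth limits the genes near 0, and with 1 pool of 3 mice the spread between animals is unknown.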
